A study of Komagataella pastoris with 6 samples.

Results

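The polyamine transporter genes of P. pastoris described here are the 3 genes that the study lists as homologs of TPO2 and TPO3 of S. cerevisiae. PAS_chr4_0836 is listed as a polyamine transporter that takes spermine, putrescine and spermidine. PAS_chr1-3_0215 is listed as a transporter for spermine alone, and PAS_chr1-4_0431 as a multidrug transporter of the major facilitator superfamily in the plasma membrane. They are 3 of the 5040 genes in the count table and were taken by identifier. The study picked them as differentially expressed on these same libraries, so that they differ between the strains is not independent evidence. The change it lists for PAS_chr4_0836 is smaller than its own fold change cut-off of 2. The products and homologies are the study's own, and the protein sequences behind them were not analysed here.

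The cultures were of KM71-ScFlo1-LpDLDH, which carries the S. cerevisiae flocculation gene ScFLO1, and of the control KM71-LpDLDH, with 3 cultures of each. Both strains derive from P. pastoris KM71, a laboratory host strain of this methylotrophic yeast, and both carry LpDLDH, the d-lactate dehydrogenase gene of Leuconostoc pseudomesenteroides. ScFLO1 and LpDLDH were driven by the constitutive P GAP promoter, and ScFLO1 came on a plasmid with the HIS4 marker, so effects of ScFLO1 and of that plasmid cannot be told apart. Whether each strain is 1 transformant is not given in the sources used here. All cultures grew at 30 °C in MGYH, a buffered minimal medium with glycerol and histidine, from a starting OD600 of 0.05, and were sampled for RNA in mid-exponential phase after about 21 h. The libraries held between 10386352 and 12494758 reads on genes for KM71-ScFlo1-LpDLDH and between 12127429 and 12767753 for KM71-LpDLDH.

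Polyamines are small, positively charged molecules that bind nucleic acids and membranes, and yeast cells keep their levels within limits by synthesis, uptake and export. In S. cerevisiae, Tpo2 and Tpo3 are plasma membrane antiporters that export spermine in exchange for protons. Their genes belong to the targets of Haa1, the transcription factor of the response to weak organic acids such as lactic and acetic acid, and both proteins are known for a part in acid tolerance in that yeast. Roles in P. pastoris are inferred from homology only.

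Between the strains the homologs did not move in 1 direction. PAS_chr4_0836 rose slightly, PAS_chr1-3_0215 fell to about the fold change cut-off of 2, and PAS_chr1-4_0431 fell by more than that cut-off. In the edgeR quasi-likelihood fit over all genes, 3 of the 3 had a Benjamini-Hochberg adjusted p under 0.05, against 64.2% of the 5029 genes tested. By direction, 1 of the 3 was higher, against 32.6% of all tested genes, and 2 were lower, against 31.5%. Adding the fold change cut-off left 1 of the 3, on the lower side, where 7.99% of all tested genes lay. In 2 of the 3 every KM71-ScFlo1-LpDLDH culture lay below every KM71-LpDLDH culture, which was the case for 33.6% of all tested genes. The median log2 fold change was 0.02 over all tested genes. Over the 3 genes it was -0.99, which is the value of PAS_chr1-3_0215 alone and does not describe a shared fall. Levels are given as reads per 1000000 on genes, scaled by edgeR's TMM method (CPM), which are not divided by gene length, so a level is compared between strains and not between genes. Fold changes are KM71-ScFlo1-LpDLDH over KM71-LpDLDH. The call of PAS_chr4_0836 was lost without any 1 of 3 libraries, which are named below.

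**Figure D1:**
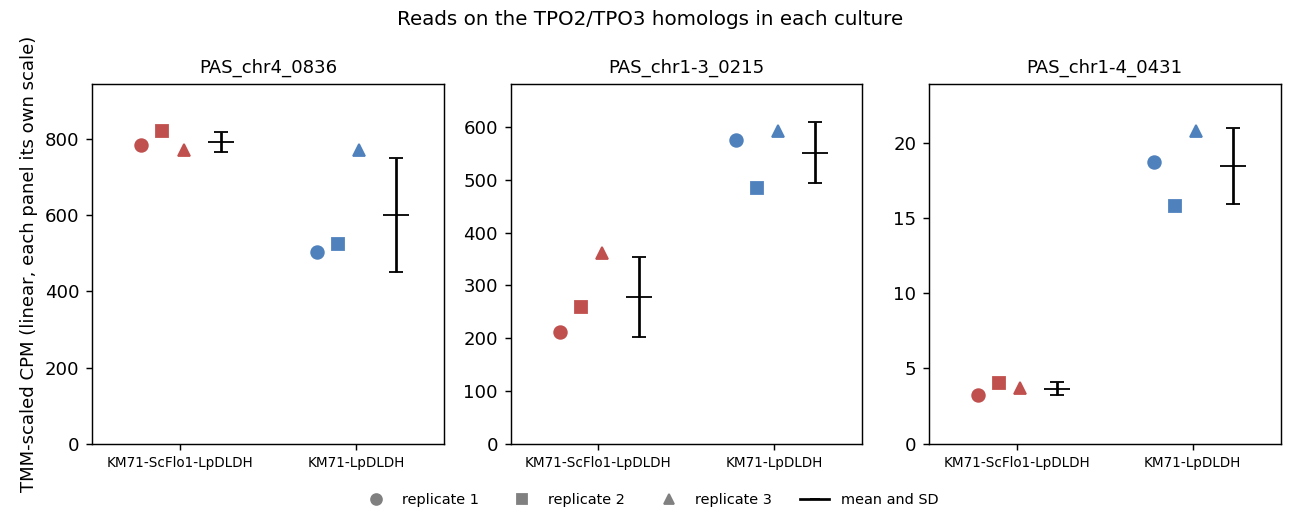
TMM-scaled CPM of the 3 TPO2/TPO3 homologs in each culture, with KM71-ScFlo1-LpDLDH left of KM71-LpDLDH. Points are single cultures, with the marker giving the replicate, the bar beside them is the mean with its SD (n = 3), and each panel has its own axis from 0. The strains overlap for PAS_chr4_0836, where replicate 3 of KM71-LpDLDH lies as high as the KM71-ScFlo1-LpDLDH cultures, and stand apart for the other genes.

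The broad-range polyamine transporter gene, PAS_chr4_0836, had 783, 822 and 772 CPM in KM71-ScFlo1-LpDLDH replicates 1 to 3, against 503, 523 and 772 CPM in KM71-LpDLDH replicates 1 to 3. The KM71-ScFlo1-LpDLDH cultures lay close together, while replicate 3 of KM71-LpDLDH was well above the other control cultures. The overlap between the strains was narrow, since the lowest KM71-ScFlo1-LpDLDH culture was 0.883 CPM below the highest KM71-LpDLDH culture. With total-count scaling the strains did not overlap, and the lowest KM71-ScFlo1-LpDLDH culture was 40.4 CPM above the highest KM71-LpDLDH culture. The log2 fold change was 0.40 (standard error 0.20), a 1.32-fold higher level, with an adjusted p of 0.0401 by the edgeR quasi-likelihood fit. The 95% interval of the log2 fold change by limma, which estimated it at 0.43, ran from 0.10 to 0.76, and did not reach the cut-off of 1.

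The call for PAS_chr4_0836 depended on single libraries. The adjusted p by the same edgeR test became 0.151 without replicate 1 of KM71-LpDLDH, 0.148 without replicate 2 of KM71-LpDLDH and 0.103 without replicate 2 of KM71-ScFlo1-LpDLDH. Without replicate 3 of KM71-LpDLDH, the culture with the high level, the log2 fold change was 0.63 and the adjusted p was 0.00093. Over all alternatives the adjusted p ranged from 0.00093 to 0.151 and the log2 fold change stayed positive.

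The spermine transporter gene, PAS_chr1-3_0215, had 213, 259 and 361 CPM in KM71-ScFlo1-LpDLDH replicates 1 to 3, against 575, 486 and 594 CPM in KM71-LpDLDH replicates 1 to 3. Every KM71-ScFlo1-LpDLDH culture was below every KM71-LpDLDH culture, and replicate 3 of KM71-ScFlo1-LpDLDH was the nearest to the control level. Its mean was 277.8 ± 76.0 CPM in KM71-ScFlo1-LpDLDH and 552 ± 57.7 CPM in KM71-LpDLDH (SD, n = 3 each). The log2 fold change was -0.99 (standard error 0.24), which puts the level 1.99-fold lower, with an adjusted p of 0.000602 in the edgeR fit. The limma estimate was -1.02, with a 95% interval from -1.40 to -0.64, so the cut-off of 2-fold lies inside the interval. In edgeR's test against a fold change of 2, its adjusted p was 1.00.

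The gene listed as a multidrug transporter, PAS_chr1-4_0431, was counted at 43, 47 and 38 reads in KM71-ScFlo1-LpDLDH replicates 1 to 3, against 218, 200 and 242 reads in KM71-LpDLDH replicates 1 to 3. These reads correspond to 3.20, 4.06 and 3.68 CPM in KM71-ScFlo1-LpDLDH and to 18.7, 15.8 and 20.8 CPM in KM71-LpDLDH. The strains were far apart compared with the spread within each. The log2 fold change of -2.34 had a standard error of 0.15 and an adjusted p of 2.81e-06 in the edgeR fit, and it ranked 54 among the falls of all 5029 tested genes. The pooled level was 5.07-fold lower in KM71-ScFlo1-LpDLDH, and the exact binomial 95% interval of 4.19 to 6.17 reflects counting error alone. It was the only one of the 3 to pass edgeR's test against a fold change of 2, with an adjusted p of 9.18e-05.

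In reads per gene, PAS_chr1-4_0431 stood near the bottom of the tested genes. Its mean CPM was at percentile 0.537 of the 5029 genes in KM71-ScFlo1-LpDLDH and at percentile 8.97 in KM71-LpDLDH. PAS_chr4_0836 was at percentile 96.5 in KM71-ScFlo1-LpDLDH and at percentile 93.7 in KM71-LpDLDH. PAS_chr1-3_0215 was at percentile 85.5 in KM71-ScFlo1-LpDLDH and at percentile 92.9 in KM71-LpDLDH. These places are in reads and would shift if gene length were taken into account.

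The spread between cultures also differed between the homologs. For PAS_chr4_0836 the coefficient of variation was 3.35% in KM71-ScFlo1-LpDLDH and 25.0% in KM71-LpDLDH, at percentiles 14.9 and 97.1 of the coefficients of all tested genes in the same strain. For PAS_chr1-3_0215 it was 27.4% in KM71-ScFlo1-LpDLDH and 10.5% in KM71-LpDLDH, at percentiles 97.2 and 68.5. Both genes were thus most variable in the strain in which they were lower, and in each case replicate 3 of that strain was the culture above the others. For PAS_chr1-4_0431 the coefficients were 11.7% in KM71-ScFlo1-LpDLDH and 13.7% in KM71-LpDLDH. With 3 cultures per strain these coefficients are themselves imprecise, and their difference between strains was not tested.

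**Figure D2:**
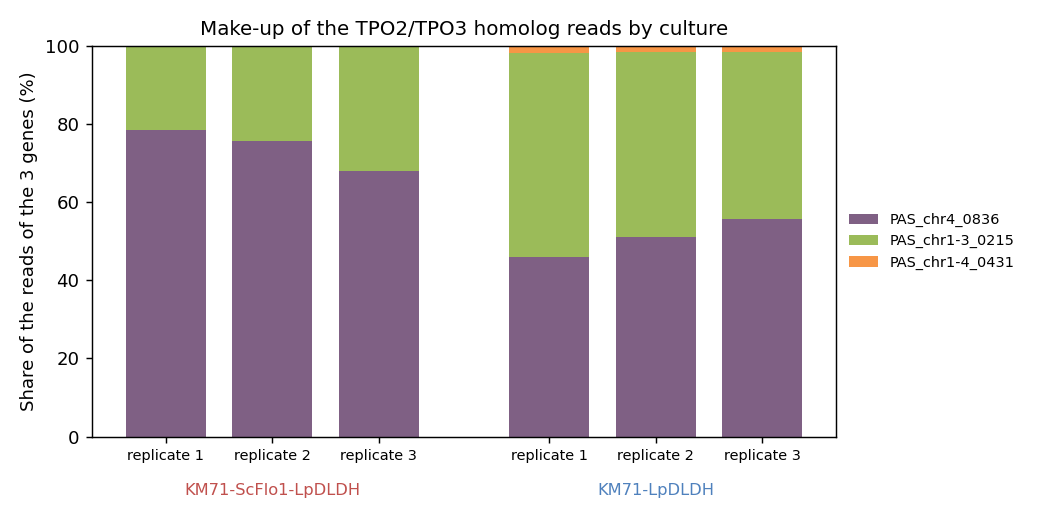
Share of the summed reads of the 3 TPO2/TPO3 homologs that fell on each gene, in percent, with 1 stacked bar per culture and KM71-ScFlo1-LpDLDH left of KM71-LpDLDH. PAS_chr4_0836 holds 67.9% to 78.4% in KM71-ScFlo1-LpDLDH and 45.9% to 55.7% in KM71-LpDLDH.

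The summed reads of the 3 genes did not differ between the strains by more than the spread between cultures, while none of the shares of the single genes overlapped. The summed level was 999, 1086 and 1137 CPM in KM71-ScFlo1-LpDLDH replicates 1 to 3, against 1097, 1025 and 1387 CPM in KM71-LpDLDH replicates 1 to 3. The means were 1074 ± 69.6 CPM in KM71-ScFlo1-LpDLDH and 1170 ± 192 CPM in KM71-LpDLDH (SD, n = 3 each). The difference of -96.0 CPM (standard error 118) was within the spread of the cultures, with p = 0.6 by a two-sided exact permutation test. Its size and sign were not stable, since it was -12.7 CPM with total-count scaling and 13.4 CPM without replicate 3 of KM71-LpDLDH. A sum over the 3 genes is mostly a sum of PAS_chr4_0836 and PAS_chr1-3_0215, and says nothing of the amount of each transporter protein.

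The broad-range transporter gene PAS_chr4_0836 took 74.0 ± 5.46% of the summed reads in KM71-ScFlo1-LpDLDH and 50.9 ± 4.91% in KM71-LpDLDH (SD, n = 3 each). The spermine transporter gene PAS_chr1-3_0215 took 25.7 ± 5.47% in KM71-ScFlo1-LpDLDH and 47.6 ± 4.81% in KM71-LpDLDH (SD, n = 3 each). For PAS_chr1-4_0431 the share was 0.339 ± 0.0297% in KM71-ScFlo1-LpDLDH and 1.58 ± 0.109% in KM71-LpDLDH (SD, n = 3 each). Each share gave p = 0.1 by a two-sided exact permutation test and 0.1 after adjustment over the 3 shares, which is the smallest p that 3 cultures against 3 can give. The shares add up to the whole, so they are not independent of each other. The study had listed the genes with their directions on these same libraries, so the shifts in share are not independent evidence. Shares of reads depend on the gene lengths, which were not analysed here, so they are not shares of transcripts.

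Whether the strain difference itself differed between the homologs was read from the ratio of their reads within each library, where neither library scaling nor gene length affects the difference between strains. The log2 ratio of PAS_chr4_0836 to PAS_chr1-3_0215 was 1.88, 1.66 and 1.09 in KM71-ScFlo1-LpDLDH replicates 1 to 3, against -0.19, 0.11 and 0.38 in KM71-LpDLDH replicates 1 to 3. The lowest ratio in KM71-ScFlo1-LpDLDH was above the highest in KM71-LpDLDH. The means differed by 1.45 on the log2 scale (standard error 0.29). The log2 ratio of PAS_chr4_0836 to PAS_chr1-4_0431 was higher in KM71-ScFlo1-LpDLDH by 2.75 (standard error 0.16). The same ratio for PAS_chr1-3_0215 to PAS_chr1-4_0431 was higher by 1.30 (standard error 0.20), with the larger fall in PAS_chr1-4_0431. The strains did not overlap in any of the 3 pairs, and each pair gave the smallest possible p of 0.1 by the two-sided exact permutation test, also 0.1 after adjustment over the 3 pairs. The study had listed PAS_chr4_0836 as upregulated and the others as downregulated. It gave the size of each change on these same libraries, so none of the 3 pairs is independent evidence. Leaving out each library in turn kept the difference of the first pair between 1.28 and 1.67, of the second between 2.62 and 2.86 and of the third between 1.11 and 1.41.

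**Figure D3:**
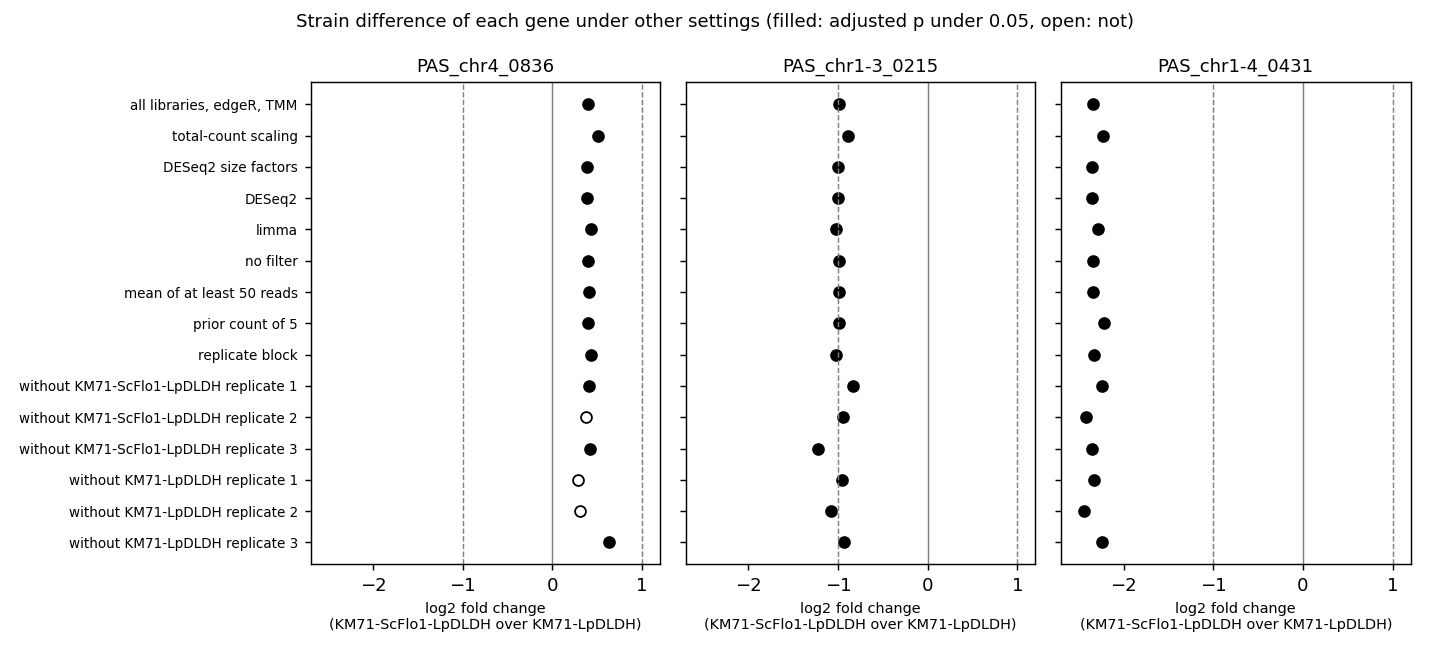
Log2 fold change of each TPO2/TPO3 homolog, KM71-ScFlo1-LpDLDH over KM71-LpDLDH, with 1 row for each way of scaling, filtering, testing or leaving out a library. Filled points had an adjusted p under 0.05 and open points did not, and dashed lines mark a fold change of 2. PAS_chr4_0836 has open points in 3 rows, PAS_chr1-3_0215 lies on both sides of the lower dashed line, and PAS_chr1-4_0431 stays past it in every row.

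The 3 homologs were set beside 11 of the other transporter genes that the study lists with products, namely those outside its iron, zinc and H+-ATPase groups, which were also chosen by the study on these libraries. The iron and zinc transporters and the proton pump it lists were not among them. These 11 include homologs of the lactate transporter JEN1, the acetate transporter ADY2, the weak acid exporter PDR12 and the monocarboxylate permease-like ESBP6. In the edgeR fit at an adjusted p under 0.05, 7 were higher and 4 were lower, against 32.6% and 31.5% of all tested genes. Since the study chose them on these libraries, that all were called is not independent evidence. The log2 fold changes of these 11 ran from -3.47 to 1.33, and the one nearest to 0 was 0.79 away from it. The log2 fold change of 0.40 for PAS_chr4_0836 was thus smaller in absolute size than that of each of the 11. The homologs of TPO2 and TPO3 spanned 2.74 on the log2 scale, close to the 2.80 between the 2 homologs of PDR12 and wider than the 1.46 of the 3 ESBP6 homologs and the 0.50 of the 3 ADY2 homologs.

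**Figure D4:**
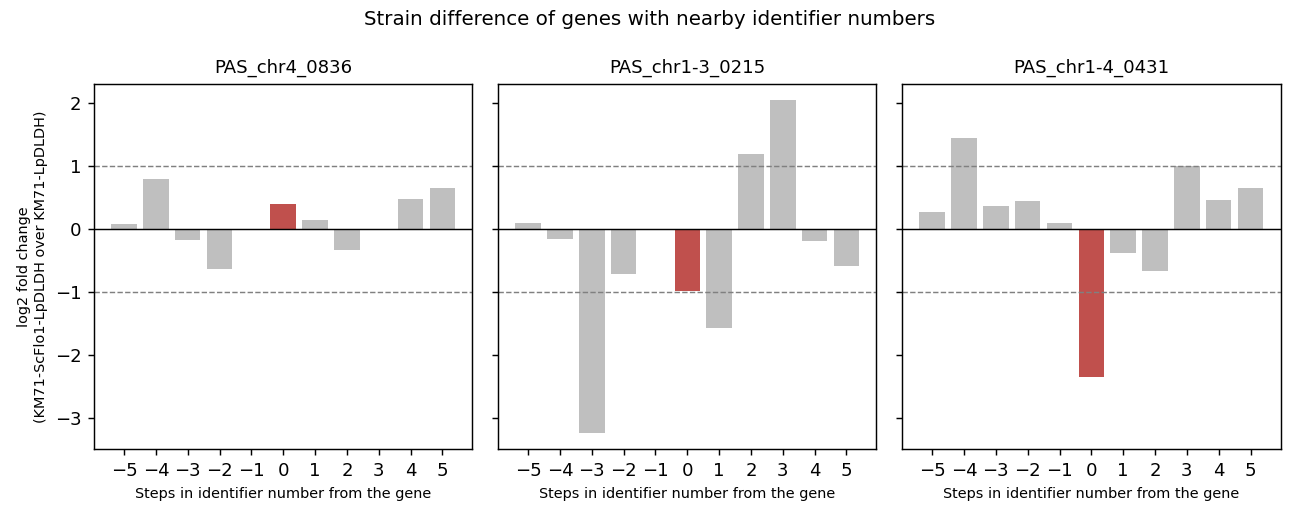
Log2 fold change, KM71-ScFlo1-LpDLDH over KM71-LpDLDH, of the tested genes whose identifier number is within 5 steps of each TPO2/TPO3 homolog, which is drawn in red at 0. Dashed lines mark a fold change of 2. A missing bar is an identifier number absent from the count table, apart from the gene 1 step before PAS_chr4_0836, whose value is -0.00. PAS_chr1-4_0431 falls between genes that mostly do not fall, whereas genes next to PAS_chr1-3_0215 move past the cut-off in both directions.

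Gene positions were not analysed here, and identifier numbers were used in their place. Within 5 numbers of PAS_chr4_0836, 0 of 9 tested genes passed both thresholds, against 16.4% of all tested genes. At an adjusted p under 0.05 in the edgeR fit, 3 were higher and 1 was lower, against 32.6% and 31.5% of all tested genes. The study-listed gene among them, the PDR12 homolog PAS_chr4_0832, had 1292 CPM in KM71-ScFlo1-LpDLDH and 747 CPM in KM71-LpDLDH, a log2 fold change of 0.79. The genes numbered directly before and after PAS_chr4_0836 had log2 fold changes of -0.00 and 0.14, neither with an adjusted p under 0.05.

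Around PAS_chr1-3_0215, 2 of 9 tested genes passed both thresholds on the lower side and 2 on the higher side. Of all tested genes, 16.4% passed both thresholds in either direction and 7.99% on the lower side. At an adjusted p under 0.05 alone in the edgeR fit, 4 of the 9 were lower and 2 higher, against 31.5% and 32.6% of all tested genes. The next gene, PAS_chr1-3_0216, had 99.9 CPM in KM71-ScFlo1-LpDLDH and 297 CPM in KM71-LpDLDH, a log2 fold change of -1.57, and thus fell with PAS_chr1-3_0215. PAS_chr1-3_0212, 3 numbers before it, had a log2 fold change of -3.23. In the other direction, PAS_chr1-3_0217 had a log2 fold change of 1.19 and the SUR1 homolog PAS_chr1-3_0218 one of 2.04. Apart from PAS_chr1-3_0218, the sources used here give these genes no names. The use of strand in counting is not given in the sources used here, and whether PAS_chr1-3_0216 overlaps PAS_chr1-3_0215 or shares reads with it was not tested.

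Around PAS_chr1-4_0431, 1 of 10 tested genes passed both thresholds, against 16.4% of all tested genes. It was PAS_chr1-4_0427, which was higher with a log2 fold change of 1.43. The genes numbered directly before and after PAS_chr1-4_0431 had log2 fold changes of 0.10 and -0.39. The gene after it, which was lower, had an adjusted p under 0.05 in the edgeR fit, and the gene before it did not. Of the 10, 7 were higher and 2 lower at an adjusted p under 0.05 in the edgeR fit, against 32.6% and 31.5% of all tested genes. Their median log2 fold change was 0.41, and none fell past the cut-off.

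The genes most like each homolog over the 6 libraries were found from the root mean square difference of mean-centred log2 CPM, a description of pattern only. For PAS_chr1-3_0215 the closest were PAS_chr1-1_0016 (0.025 on the log2 scale), PAS_chr4_0637 (0.027) and PAS_chr4_0851 (0.058). PAS_chr1-1_0016 had 386 CPM in KM71-ScFlo1-LpDLDH and 761 CPM in KM71-LpDLDH, a log2 fold change of -0.98. For PAS_chr4_0836 the closest were PAS_chr1-4_0133 (0.059), PAS_chr1-1_0351 (0.076) and PAS_chr4_0188 (0.093), with log2 fold changes of 0.44, 0.36 and 0.42. For PAS_chr1-4_0431 they were PAS_chr2-1_0425 (0.093), PAS_chr4_0709 (0.103) and PAS_chr2-1_0369 (0.111), with log2 fold changes of -2.17, -2.21 and -2.41.

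Among the 22 genes that the study lists with products, the nearest to PAS_chr1-4_0431 was the ESBP6 homolog PAS_chr2-1_0309, which was also the 10th nearest of all tested genes, at 0.136 on the log2 scale. PAS_chr2-1_0309 had 85.1 CPM in KM71-ScFlo1-LpDLDH and 428 CPM in KM71-LpDLDH, a log2 fold change of -2.33. The nearest study-listed genes to PAS_chr4_0836 and PAS_chr1-3_0215 were PAS_chr1-1_0418 and PAS_chr3_0278, but they ranked 629 and 1827 among all tested genes. No homolog of TPO2 and TPO3 was thus the nearest listed gene to another. The measure includes the strain difference, so this follows largely from their unlike log2 fold changes and is no separate evidence of unlike patterns.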

How the data were processed

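Messenger RNA of 6 cultures was sequenced by NovogeneAIT as paired-end reads of 150 nt. According to the methods, cleaning was by fastp, mapping by HISAT2 against the GS115 genome and counting by HTSeq-count, with versions not given in the sources used here. Analysed was 1 deposited table of counts in whole numbers from the authors, named as normalized but with unequal library totals, which was treated as raw counts. The number of table columns of no sample was 0.

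Of 5040 genes, 5029 averaged at least 10 reads over the libraries. These, the 3 homologs among them, were tested with edgeR 4.0.16 in R 4.3.3 (TMM scaling, quasi-likelihood test, prior count 0.125, Benjamini-Hochberg adjustment over all tested genes). Calls used an adjusted p under 0.05 and, where stated, a fold change above 2. limma 3.58.1 and DESeq2 1.42.0 served as alternatives, and the edgeR, DESeq2 and limma fits were tested on simulated data. Standard errors of log2 fold changes came from the spread of log2 CPM with a prior count of 2, not from the edgeR fit. Likeness used the same log2 CPM. The members and lists were chosen with earlier results of these data known. Genes named are the 3 homologs, the 3 most alike to each and its nearest study-listed gene, and, within 5 identifier numbers, those past both thresholds and those the study lists. The directly neighbouring genes were added after their values were seen. A planned list of polyamine and Haa1 genes was left out, since 0 identifiers matched the reference table, which is for another assembly. Gene lengths and sequences were not analysed here for the same reason. Triplicate cultures were sampled according to the methods. The methods do not say that replicate numbers tie cultures of both strains.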

Additional observations from a re-analysis of the deposited data

How the results depend on the processing

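The count of homologs past both thresholds was 1, and became 2 under limma, under DESeq2, under edgeR with the size factors of DESeq2, with the replicate block and with a fold change cut-off of 1.5. In each of these, PAS_chr1-3_0215 joined PAS_chr1-4_0431. Leaving out single libraries, the count was between 1 and 2, with 2 without replicate 3 of KM71-ScFlo1-LpDLDH and without replicate 2 of KM71-LpDLDH. The log2 fold change of PAS_chr4_0836 was then between 0.29 and 0.63, that of PAS_chr1-3_0215 between -1.23 and -0.83 and that of PAS_chr1-4_0431 between -2.44 and -2.24. The direction of each of the 3 genes was the same in all 14 alternatives, and the adjusted p stayed under 0.05 in 11 of them for PAS_chr4_0836 and in 14 for each of the others. Total-count scaling put the median log2 fold change of all tested genes at 0.13, against 0.02 with TMM, and gave 0.51, -0.89 and -2.23 for PAS_chr4_0836, PAS_chr1-3_0215 and PAS_chr1-4_0431. The replicate block gave 0.43, -1.02 and -2.33 for the same genes. Deviations of same-numbered replicates from their strain means correlated at -0.13, 0.05 and 0.11 across genes, and not every replicate correlated best with its own number, so the numbers were not taken to pair the cultures. Depth limits PAS_chr1-4_0431 most, with 128 reads over the KM71-ScFlo1-LpDLDH libraries and 660 over the KM71-LpDLDH libraries.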
